A study of Mus musculus with 11 samples.

Results

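Nlrp1a encodes an inflammasome sensor of blood progenitors and was chosen by its fall in p53-/- LSKs in these same libraries. The question asked of the data was whether the genes that act beside it changed too. Besides Nlrp1a, the genes followed are the sensors Nlrp1b, Nlrp3, Nlrc4 and Aim2, the adaptor Pycard, the protease Casp1, the pore-forming Gsdmd, and the cytokines Il18 and Il1b. All 10 genes were present among the 12647 genes of the count table, and all 10 passed the filter on low counts. Since the values of Nlrp1a in p53-/- libraries were what it was selected on, its differences from p53-/- are described without a test. The other 9 genes are named for their function, and their differences were tested.

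RNA was sequenced from LSKs (Lin-Sca1+Kit+ bone marrow cells, a population that holds hematopoietic stem cells and multipotent progenitors) of young mice of 3 genotypes, with 3 libraries each. The p53+/+ mice, called wild-type in the labels, carry a humanized p53 knock-in (HUPKI) allele according to the study's methods, in which human p53 sequence stands between mouse ends under the mouse promoter. The p53R248W/+ mice carry 1 allele of this kind with the human hot-spot mutation R248W in the DNA-binding domain and 1 allele without it. The p53-/- mice lack p53, and how their null alleles were made is not given in the sources used here. These alleles are not restricted to blood cells, and the p53+/+ and p53R248W/+ mice are described as backcrossed to a C57BL6 background. Whether a library came from 1 mouse or from several is not given in the sources used here, so p-values measure the spread between these samples.

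Inflammasomes are protein complexes that assemble in the cytosol when a sensor detects a microbe, a toxin or a disturbance of the cell. The sensor recruits caspase-1, directly or through the adaptor ASC. Active caspase-1 cleaves gasdermin D, whose fragments open pores in the plasma membrane, and matures the interleukin-1 family cytokines that leave through these pores. The lytic death that follows is called pyroptosis. In mouse marrow, an overactive Nlrp1a is known to kill progenitors by this route.

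Depth ran from 18021375 to 29750702 counted reads per library, and no library repeated another of its genotype within sampling noise. The labels were checked on the p53 target Cdkn1a, an inhibitor of the cell cycle, which was at 43.6 to 67.0 CPM (counts scaled to the size of the library) in p53+/+, 35.7 to 52.1 in p53R248W/+ and 8.27 to 17.8 in p53-/- libraries. The level of Trp53 itself was 124.5, 206.8 and 376.2 CPM in p53+/+ replicates 1, 2 and 3, against 112.1 to 128.9 in p53-/- libraries, so reads on this gene did not separate p53+/+ replicate 1 from the p53-/- libraries. In p53R248W/+ libraries it was 218.7 to 240.5 CPM. Across all genes 2 libraries stood apart, and their labels share a suffix that the other libraries do not have. After centring, p53+/+ replicate 1 had a mean correlation of -0.11 with its own genotype, against 0.01 and 0.08 for the other p53+/+ libraries, and p53R248W/+ replicate 1 of -0.23, against 0.02 and 0.01 for the other p53R248W/+ libraries. Their mean correlations with the p53-/- libraries were -0.15 and -0.09, against -0.46 to -0.39 for the others. Results that rest on either library are given without it as well. All 12 LSK markers were detected, with summed levels of 3919 to 4984, 4275 to 4773 and 4923 to 5467 CPM in p53+/+, p53R248W/+ and p53-/- libraries. The 18 markers of neutrophils and monocytes, all of them detected, summed to 3240 to 8809, 4707 to 10400 and 2360 to 2727 CPM in the same order, and none was at 0 throughout a genotype.

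Nlrp1a and Nlrp1b are neighbours and close relatives. In GRCm38, RefSeq places Nlrp1a at chr11:71091197-71144969 and Nlrp1b at chr11:71152574-71242514, both on the minus strand and 1.51 and 1.57 Mb from Trp53. The stretches of 250 bases before their start sites are shown because they tell how alike the pair is. Between Nlrp1a (chr11:71144705-71144954, minus strand) and the nearest match among the starts of Nlrp1b (chr11:71230734-71230983, minus strand), 217 of 237 aligned bases were identical (91.6%), and capitals mark the bases that differ from the other sequence or have no partner in it.
Nlrp1a: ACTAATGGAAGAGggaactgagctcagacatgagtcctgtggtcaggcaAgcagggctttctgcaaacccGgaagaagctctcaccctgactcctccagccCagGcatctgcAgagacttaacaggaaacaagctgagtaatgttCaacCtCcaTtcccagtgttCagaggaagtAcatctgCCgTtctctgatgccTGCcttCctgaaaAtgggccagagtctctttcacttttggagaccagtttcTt
Nlrp1b: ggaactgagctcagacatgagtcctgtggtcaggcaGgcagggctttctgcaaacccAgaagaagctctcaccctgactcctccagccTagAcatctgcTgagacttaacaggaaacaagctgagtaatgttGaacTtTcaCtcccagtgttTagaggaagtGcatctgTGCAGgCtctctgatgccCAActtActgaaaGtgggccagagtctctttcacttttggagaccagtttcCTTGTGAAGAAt
Another annotated start of Nlrp1b (chr11:71201457-71201706, minus strand) was identical to that of Nlrp1a at 133 of 203 aligned bases (65.5%). Of its 250 bases, 117 differed or had no partner. It holds a match to the p53 half-site consensus, in capitals.
Nlrp1b, other start: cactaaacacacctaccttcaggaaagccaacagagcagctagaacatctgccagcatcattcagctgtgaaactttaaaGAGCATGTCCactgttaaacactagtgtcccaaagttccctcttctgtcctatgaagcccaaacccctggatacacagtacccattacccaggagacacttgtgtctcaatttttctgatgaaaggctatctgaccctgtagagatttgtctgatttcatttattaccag

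The half-site is the 10-base pattern that p53 binds in pairs, and motifs were searched on both strands. Windows from RefSeq that run from 250 bases before to 50 bases after a start were found for 9 of the genes, 11 windows in all, with more than one start for some. A half-site match lay in 3 of them, the one shown and those of Nlrp3 and Pycard, and in 8.36% of 32851 mouse promoters. The window of Nlrp1a held none, which says only that these letters are not in it. The window of Nlrp3 was the only one of the 11 with a match to the NF-kB consensus, found in 8.46% of all promoters, and none of the 11 matched the AP-1 (TGANTCA) or GAS consensus, found in 7.81% and 8.30% of all promoters. Along the transcripts the pair was compared by exact matches of whole windows. This measure cannot be set against the share of identical bases given for the starts. Of the 50-base windows of the Nlrp1a transcript, 1.97% occurred unchanged in a Nlrp1b transcript (GENCODE models), and 1.76% in the reverse direction. Of the 100-base windows, 0.0789% of those of Nlrp1a and 0.0711% in the reverse direction were shared. A read that lies wholly in a shared stretch cannot be assigned to one gene. The handling of such reads by the counting program is not given in the sources used here.

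Nlrp1a was almost silent in p53-/- LSKs, with 7, 5 and 7 counts in replicates 1, 2 and 3, or 0.38, 0.23 and 0.34 CPM. Its counts in p53+/+ libraries were 10, 177 and 315, or 0.50, 8.82 and 17.57 CPM. In p53R248W/+ libraries 120, 166 and 175 counts, or 4.31, 7.99 and 8.0 CPM, fell on the gene. The genotypes with p53 did not overlap p53-/-, but p53+/+ replicate 1 lay just above it and far below the other p53+/+ libraries. Put on the log2 scale, p53-/- was lower than p53+/+ by a fitted difference of -4.81 (95% interval -6.92 to -2.69, a description). The interval takes no account of the choice of the gene by this fall and is no test of it. The fitted difference was -5.36 without p53+/+ replicate 1 and -3.86 without p53+/+ replicate 3. The difference of p53R248W/+ from p53-/- was 4.40 on the same scale, also a description. In a bulk sample, fewer cells of a type that express a gene cannot be told apart from less of its RNA per cell.

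The comparison of p53R248W/+ with p53+/+ was not used to choose Nlrp1a and was tested. The log2 fold change was -0.40 with an SE of 0.77 (95% interval -2.08 to 1.27, adjusted p = 1.00, edgeR's quasi-likelihood test with Benjamini-Hochberg adjustment). The p53R248W/+ libraries lay inside the range of the p53+/+ libraries. These had an SD of 8.53 CPM around a mean of 8.96 CPM (n = 3). Without p53+/+ replicate 1 the log2 fold change was -0.96 (adjusted p = 0.998), and over the alternatives it ran from -0.96 to 0.60.

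**Figure D1:**
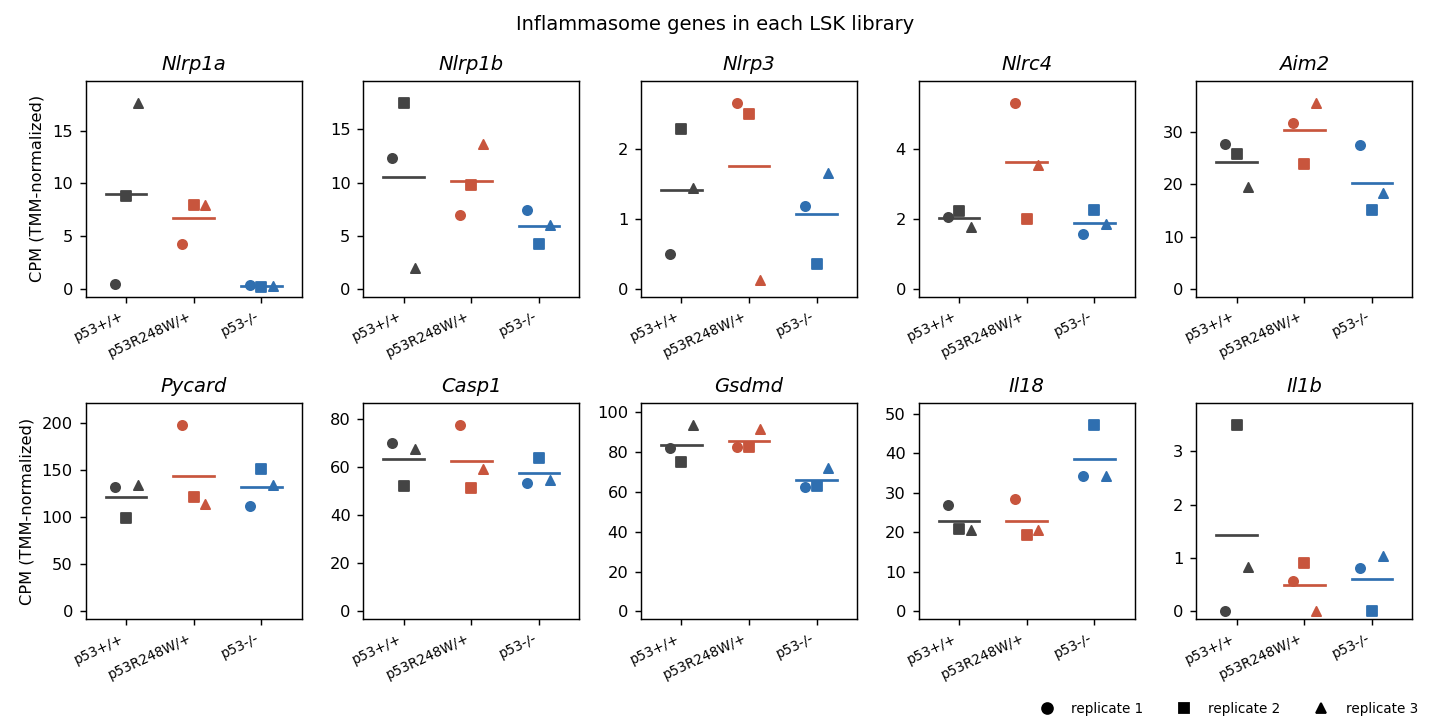
Level of each of the 10 genes in each library, in CPM with TMM normalization on linear axes that differ between panels, with a bar at the mean of each genotype and a symbol for each replicate number. Nlrp1a lies between 0.23 and 0.38 CPM in p53-/- libraries, and p53+/+ replicate 1 (0.50 CPM) lies beside them.

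Nlrp1b, the sensor that anthrax lethal toxin activates in some mouse strains, had 244, 350 and 35 counts in p53+/+ replicates 1, 2 and 3, or 12.29, 17.43 and 1.95 CPM. The p53R248W/+ libraries were at 6.97, 9.82 and 13.58 CPM and the p53-/- libraries at 7.40, 4.25 and 6.04 CPM. All 3 genotypes overlapped, and p53-/- overlapped p53+/+ only through p53+/+ replicate 3, which was the lowest library of the 9. The order of the p53+/+ libraries was therefore not that of Nlrp1a, for which replicate 3 was the highest. The log2 fold change in p53-/- against p53+/+ was -0.84 with an SE of 0.58 (95% interval -2.10 to 0.42, adjusted p = 0.404, edgeR). Without p53+/+ replicate 3 it was -1.34, and it was not called in any of the 17 alternatives. In p53R248W/+ it differed from p53+/+ by -0.06 (adjusted p = 1.00) and from p53-/- by 0.78 (adjusted p = 0.475).

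The mix of the pair differed more between p53+/+ libraries than between libraries of any other genotype. Nlrp1a took 3.94% of the reads on the pair in p53+/+ replicate 1 (exact 95% binomial interval 1.90% to 7.12%), 33.6% in replicate 2 (29.6% to 37.8%) and 90.0% in replicate 3 (86.4% to 92.9%). Its share was 38.2%, 44.9% and 37.1% in p53R248W/+ and 4.90%, 5.05% and 5.38% in p53-/- libraries. These intervals cover counting error only. Those of the p53+/+ libraries do not overlap each other, while those of the p53-/- libraries and of p53+/+ replicate 1 do. Summed over the pair, the level was 12.8, 26.2 and 19.5 CPM in p53+/+, 11.3, 17.8 and 21.6 in p53R248W/+ and 7.78, 4.47 and 6.38 in p53-/- libraries, so the p53-/- libraries were lowest in the sum as well. The p53-/- libraries and p53+/+ replicate 1 had the lowest Trp53 levels of the 9 and also the smallest shares of Nlrp1a. The p53 target Cdkn1a did not follow this order, since every p53+/+ library, replicate 1 included, lay above the p53-/- libraries. Whether the level of Trp53, another allele carried with the targeted locus or the handling of shared reads set the mix was not tested, and linked alleles cannot be told apart from the genotype in this design.

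**Figure D2:**
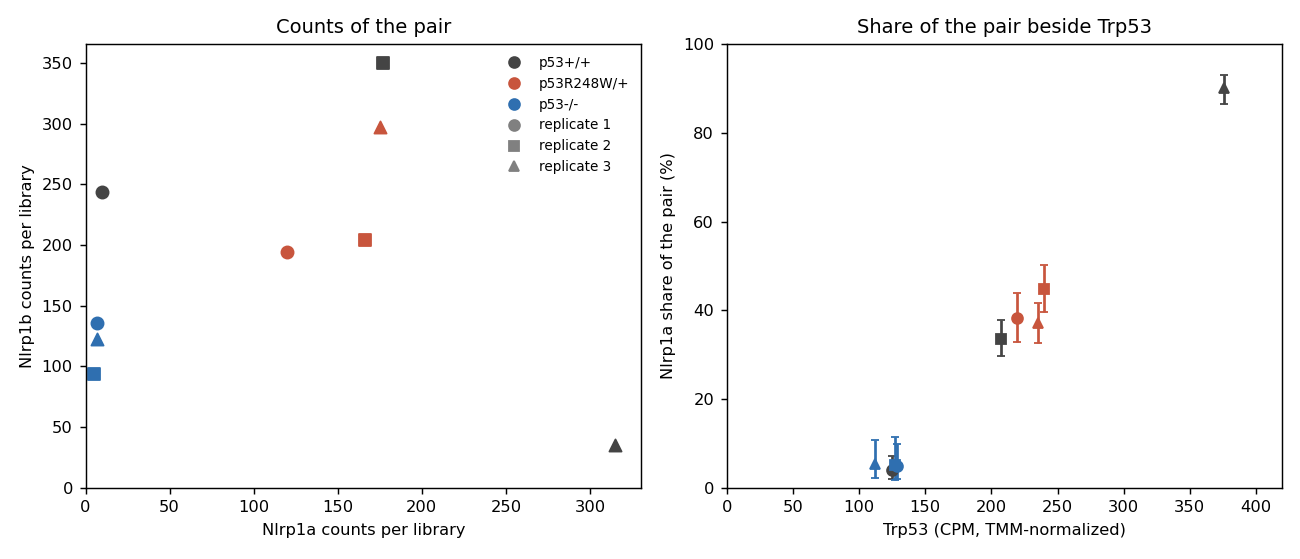
Left, counts of Nlrp1b against those of Nlrp1a in each library. Right, the share of Nlrp1a in the reads of the pair (%, with exact 95% binomial intervals) against Trp53 in CPM. Colours give the genotype and symbols the replicate. The p53+/+ libraries run from a share of 3.94% to 90.0%, and the p53R248W/+ libraries lie between 37.1% and 44.9%.

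The other sensors were Nlrp3 (chr11:59541569-59566955), which responds to potassium loss and many other stresses, Nlrc4 (chr17:74426255-74459144), which answers bacterial flagellin and secretion systems through the NAIP proteins, and Aim2 (chr1:173349547-173466040), which binds DNA in the cytosol. Nlrp3 was barely expressed, at 0.50, 2.29 and 1.45 CPM in p53+/+, 2.66, 2.5 and 0.14 in p53R248W/+ and 1.20, 0.36 and 1.67 in p53-/- libraries. Nlrc4 had 2.07, 2.24 and 1.78 CPM in p53+/+, 5.32, 2.02 and 3.57 in p53R248W/+ and 1.58, 2.26 and 1.87 in p53-/- libraries. For both, the genotypes overlapped, and the highest value of Nlrc4 was in p53R248W/+ replicate 1. Aim2 was the highest of these sensors, with 27.76, 25.75 and 19.52 CPM in p53+/+, 31.69, 23.93 and 35.42 in p53R248W/+ and 27.53, 15.09 and 18.27 in p53-/- libraries. Its genotypes overlapped as well.

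Against p53+/+, the log2 fold change in p53-/- LSKs was -0.40 for Nlrp3 (95% interval -2.39 to 1.59, adjusted p = 0.827, edgeR), a range that 3 to 74 counts per library leave wide. It was -0.09 for Nlrc4 (-1.09 to 0.90, adjusted p = 0.921) and -0.26 for Aim2 (-0.83 to 0.30, adjusted p = 0.576). None of these sensors was called. In p53R248W/+ against p53+/+ LSKs the values were 0.32 for Nlrp3, 0.84 for Nlrc4 (-0.14 to 1.82) and 0.32 for Aim2, each with an adjusted p of 1.00. Against p53-/- they were 0.72 (adjusted p = 0.699), 0.93 (adjusted p = 0.263) and 0.58 (adjusted p = 0.227).

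Downstream of the sensors, the transcripts of Pycard and Casp1 were abundant in every genotype. Pycard (chr7:127991373-127993867), which encodes ASC, the adaptor that links sensors to caspase-1, was at 131.75, 98.87 and 134.45 CPM in p53+/+, 197.68, 121.47 and 113.81 in p53R248W/+ and 111.58, 151.39 and 134.93 in p53-/- libraries. Casp1 (chr9:5298517-5307281), the protease itself, had 69.98, 52.00 and 67.59 CPM in p53+/+, 77.22, 51.37 and 58.96 in p53R248W/+ and 53.48, 63.79 and 54.65 in p53-/- libraries. Both overlapped between all genotypes, with p53R248W/+ replicate 1 the highest library. In p53-/- against p53+/+ the log2 fold change was 0.12 for Pycard (95% interval -0.38 to 0.63, adjusted p = 0.784, edgeR) and -0.14 for Casp1 (-0.57 to 0.29, adjusted p = 0.705). Neither interval reaches 1 in either direction, so a doubling or a halving of these transcripts lies outside them.

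Gsdmd (chr15:75862144-75867408), the pore-forming substrate of caspase-1, was at 82.03, 75.21 and 93.35 CPM in p53+/+ and 82.33, 82.38 and 91.37 in p53R248W/+ libraries. The p53-/- libraries held 62.62, 63.16 and 71.98 CPM, all below the other 6. The log2 fold change was -0.34 with an SE of 0.15 against p53+/+ (95% interval -0.68 to -0.01), which did not pass the adjustment over all genes (adjusted p = 0.208, edgeR), and p53R248W/+ exceeded p53-/- by 0.37 (0.04 to 0.71, adjusted p = 0.193). It was not called in any of the 17 alternatives of either comparison, so the separation of the libraries is given as a value and not as a change.

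Il18 (chr9:50554700-50581841), whose product is a cytokine that caspase-1 matures and that drives interferon-gamma, was the gene whose libraries separated in the upward direction. Its levels were 26.91, 20.97 and 20.69 CPM in p53+/+, 28.50, 19.31 and 20.71 in p53R248W/+ and 34.33, 47.08 and 34.18 in p53-/- libraries. All p53-/- libraries were above the other 6. The log2 fold change was 0.75 with an SE of 0.22 against p53+/+ (95% interval 0.27 to 1.24, adjusted p = 0.0756, edgeR), and p53R248W/+ differed from p53-/- by -0.75 (-1.24 to -0.27, adjusted p = 0.0816). Both missed the threshold of 0.05. They passed it with DESeq2 (adjusted p = 0.0226 and 0.0238) and without p53R248W/+ replicate 1 (adjusted p = 0.0316 and 0.0219), and in no other alternative, with adjusted p-values of 0.0226 to 0.255 and 0.0219 to 0.284 over all 17.

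Il1b (chr2:129364569-129371164), the inflammatory cytokine that the same protease matures, was near the limit of detection, with 0, 70 and 15 counts in p53+/+, 16, 19 and 0 in p53R248W/+ and 15, 0 and 21 in p53-/- libraries. One library of each genotype was at 0. A count of 70 in p53+/+ replicate 2 set the mean of its genotype, and that library also had the highest sum of neutrophil and monocyte markers among the p53+/+ libraries. The log2 fold change in p53-/- against p53+/+ was -1.23 with a 95% interval of -4.34 to 1.87 (adjusted p = 0.641, edgeR), and no difference was detectable at this depth. The part of neutrophil and monocyte RNA in the values of Il1b and Nlrp3 was not tested.

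Compared per length of the gene, the levels fell into groups. In p53+/+ LSKs the mean was 57.0 CPM per kb for Pycard, 47.0 for Gsdmd, 41.8 for Casp1, 26.4 for Il18 and 9.60 for Aim2. The rest were lower, at 1.86 for Nlrp1a, 1.72 for Nlrp1b, 1.09 for Il1b, 0.529 for Nlrc4 and 0.352 for Nlrp3. The SD between libraries was 9.28 for Pycard, 5.16 for Gsdmd and 6.45 for Casp1. Gsdmd and Casp1 were within the SD of Casp1, while Pycard lay further above Gsdmd than either SD. Nlrp1a and Nlrp1b, with an SD of 1.78 and 1.28, were within their spread. In p53-/- LSKs Nlrp1a was the lowest of the 10, at 0.0659 CPM per kb, below Nlrp3 at 0.268, and Il18 (44.5 CPM per kb) stood above Casp1 (37.9) and Gsdmd (37.1), within an SD of 8.55 for Il18. The gene lengths are those of the deposited table.

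Taken as a list, 0 of the 9 genes besides Nlrp1a passed the adjusted threshold in p53-/- against p53+/+ LSKs with edgeR, where 3.50% of the 12625 genes tested did. An unadjusted p below 0.05 was reached by Gsdmd and Il18, 2 of 9 (23.4% of all genes), and the libraries did not overlap for the same 2 (31.4% of all genes), which lay in opposite directions. These shares are near those of all genes. The median log2 fold change of the 9 was -0.26, with 7 of 9 below 0, beside a median of -0.00 over all genes. With DESeq2 1 of the 9, Il18, was called, and with limma-voom 0, where they called 1541 and 297 of the 12625 genes tested. Between p53R248W/+ and p53+/+ LSKs 0 of 10 genes were called (0.00792% of all genes), 0 had an unadjusted p below 0.05 (0.958% of all genes) and 0 separated the libraries (5.04% of all genes), and DESeq2 and limma-voom called 0 as well.

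The comparison of p53R248W/+ with p53-/- shares its p53-/- libraries with the first one and is set beside it, not counted as a second observation. Again 0 of the 9 were called with edgeR (3.44% of all genes) and limma-voom and 1, Il18, with DESeq2, while 3 of 9 had an unadjusted p below 0.05 (21.0% of all genes) and 2 of 9, Gsdmd and Il18, did not overlap (24.2% of all genes). The median was 0.37, beside 0.02 over all genes. The call rates that Nlrp1a adds to these counts follow from how it was chosen.

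**Figure D3:**
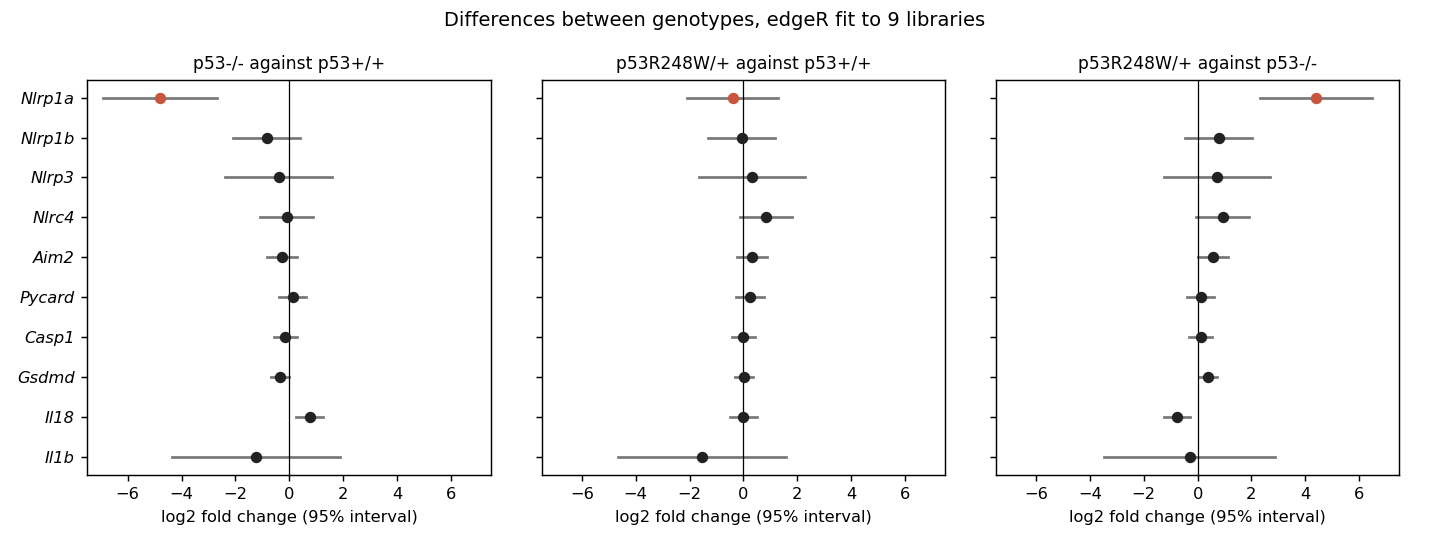
Log2 fold change of each of the 10 genes with its 95% interval from the edgeR fit to 9 libraries, in the 3 comparisons of genotypes. Nlrp1a, in red, is at -4.81 and 4.40 in the comparisons with p53-/-, for which it was chosen, so its intervals there are no test. The intervals of 7 of the other 9 genes cross 0 in p53-/- against p53+/+.

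The wider pathway was read from a list of 96 genes in 6 roles, of which 79 were in the table and tested. In p53-/- against p53+/+ LSKs 4 of 79 were called, 2 lower and 2 higher (3.50% of all genes), and 21 had an unadjusted p below 0.05, 14 of them lower (23.4% of all genes). These shares are near those of all genes. The median log2 fold change was 0.04. In p53R248W/+ against p53+/+ LSKs 0 were called with edgeR, DESeq2 or limma-voom, and 2 had an unadjusted p below 0.05 in edgeR (0.958% of all genes). In p53R248W/+ against p53-/- LSKs 3 were called, all higher in p53R248W/+ (3.44% of all genes, 295 of the 434 higher).

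Among the sensors of this list, both calls in p53-/- were lower, those of Mb21d1 and Mndal. Mb21d1 (cGAS, the enzyme that signals cytosolic DNA) was at 36.23, 44.28 and 40.26 CPM in p53+/+ and 20.94, 19.97 and 19.30 in p53-/- libraries, and it fell by 1.00 on the log2 scale (SE 0.17, adjusted p = 0.0161, edgeR). In p53R248W/+ libraries it was at 29.04, 33.27 and 32.00 CPM, between the other genotypes without overlap, with log2 fold changes of -0.36 against p53+/+ (adjusted p = 1.00) and 0.65 against p53-/- (adjusted p = 0.0594). Mndal, a relative of Aim2 in the interferon-inducible PYHIN family on chromosome 1, was at 70.54, 78.40 and 84.15 CPM in p53+/+, 62.24, 95.28 and 99.19 in p53R248W/+ and 29.98, 38.18 and 36.14 in p53-/- libraries. It fell by 1.16 in p53-/- against p53+/+ (SE 0.20, adjusted p = 0.0174) and p53R248W/+ exceeded p53-/- by 1.30 (adjusted p = 0.00885), the one call of this list that held in all 17 alternatives. Ifi203, of the same family, was at 103.84 to 121.22 CPM in p53+/+, 115.85 to 144.30 in p53R248W/+ and 69.09 to 80.60 in p53-/- libraries, with log2 fold changes of -0.60 in p53-/- against p53+/+ (adjusted p = 0.0550) and 0.80 in p53R248W/+ against p53-/- (adjusted p = 0.0234). How many reads the related PYHIN genes share was not measured here, so the split of reads between them is uncertain. For Mb21d1 and Mndal, leaving out p53+/+ replicate 2 or 3 or any p53-/- library raised the adjusted p in p53-/- against p53+/+ to between 0.0560 and 0.0837, with fold changes of the same direction. For Ifi203 the call was lost without p53R248W/+ replicate 2 or 3 or any p53-/- library (adjusted p of 0.0548 to 0.0991).

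In all, 7 of 18 sensors did not overlap between p53-/- and p53+/+ libraries, a share near that of all genes (31.4%). All 7 were lower in p53-/-, with a median of -0.31 over the 18. Among the 7, Nlrp6, Mefv and Mnda were near the floor, at no more than 2.02 CPM in any p53+/+ or p53-/- library. Mndal and Ifi203, also among them, are of the family whose shared reads were not measured. Of the 3965 genes without overlap in the whole table, 2021 were lower. Tmem173 (STING, which acts after cGAS) was the sensor-group gene of highest level per length, with a log2 fold change of 0.13 (adjusted p = 0.622).

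Both genes called higher in p53-/- act on either side of the sensors. Txnip, a thioredoxin-binding protein that is known to promote Nlrp3 activation and to respond to glucose, was at 613.68, 467.40 and 232.32 CPM in p53+/+, 690.60, 459.39 and 493.01 in p53R248W/+ and 920.43, 1567.51 and 917.83 in p53-/- libraries. It rose by 1.37 on the log2 scale in p53-/- against p53+/+ (SE 0.33, adjusted p = 0.0455, edgeR). Ninj1, which ruptures the plasma membrane at the end of pyroptosis, was at 278.17, 210.09 and 211.91 CPM in p53+/+, 323.52, 214.34 and 213.09 in p53R248W/+ and 398.82, 485.58 and 389.78 in p53-/- libraries, and rose by 0.86 (SE 0.21, adjusted p = 0.0442). The p53-/- libraries of both lay above all the others. Both calls are close to the threshold. They were lost without any one library other than p53+/+ or p53R248W/+ replicate 1, with adjusted p-values of 0.0539 to 0.179, and with upper-quartile factors. Against p53R248W/+, p53-/- had the higher levels of both without passing the threshold (adjusted p = 0.0962 for Txnip and 0.0622 for Ninj1). Both passed it with DESeq2 (adjusted p = 0.0167 and 0.00880) and without p53R248W/+ replicate 1 (adjusted p = 0.0395 and 0.00913), and Ninj1 also with the replicate block (adjusted p = 0.0437).

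Chmp4b, an ESCRT subunit that seals gasdermin pores, was at 14.56, 12.60 and 15.06 CPM in p53+/+, 20.41, 20.12 and 20.80 in p53R248W/+ and 6.85, 10.89 and 8.05 in p53-/- libraries. Its genotypes did not overlap in any comparison. Only the difference of p53R248W/+ from p53-/- was called, at 1.25 (SE 0.23, adjusted p = 0.0212, edgeR). That call was lost without p53R248W/+ replicate 2 or 3 or p53-/- replicate 1 or 3 (adjusted p of 0.0721 to 0.0767).

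The other most abundant genes of each role, compared in p53-/- against p53+/+ LSKs, were not called. The counts by role that follow stand beside 3.50% of all genes called and 23.4% with an unadjusted p below 0.05 in edgeR. Among activators and inhibitors, Serpinb1a, an inhibitor of inflammatory caspases and neutrophil proteases, differed by -0.14 in p53-/- against p53+/+ (adjusted p = 0.653), and Irgm1, an interferon-inducible GTPase, by 0.74 (adjusted p = 0.0506). Among caspases and cell death kinases 0 of 12 were called with edgeR (3 at an unadjusted p below 0.05, 3 with DESeq2 and 0 with limma-voom), with Casp8 at 0.08 and Ripk3 at 0.04 on the log2 scale. In the pore and membrane group, Chmp2a was at 0.11 and Vps4b at 0.24. Among cytokines and decoys 0 of 5 were called with edgeR, DESeq2 or limma-voom, and 0 at an unadjusted p below 0.05 in edgeR, with Hmgb1, a nuclear protein that lytic cells release, at -0.19, Sigirr at 0.27 and Il1r2, a decoy receptor of interleukin-1, at 0.47. Of 14 genes of receptors and signalling 0 were called with edgeR (4 at an unadjusted p below 0.05, 2 with DESeq2 and 0 with limma-voom). Myd88, the adaptor of these receptors, was at 0.09 (95% interval -0.22 to 0.41), Irak1 at -0.55 and Tab1 at -0.60 (adjusted p = 0.141 each).

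**Figure D4:**
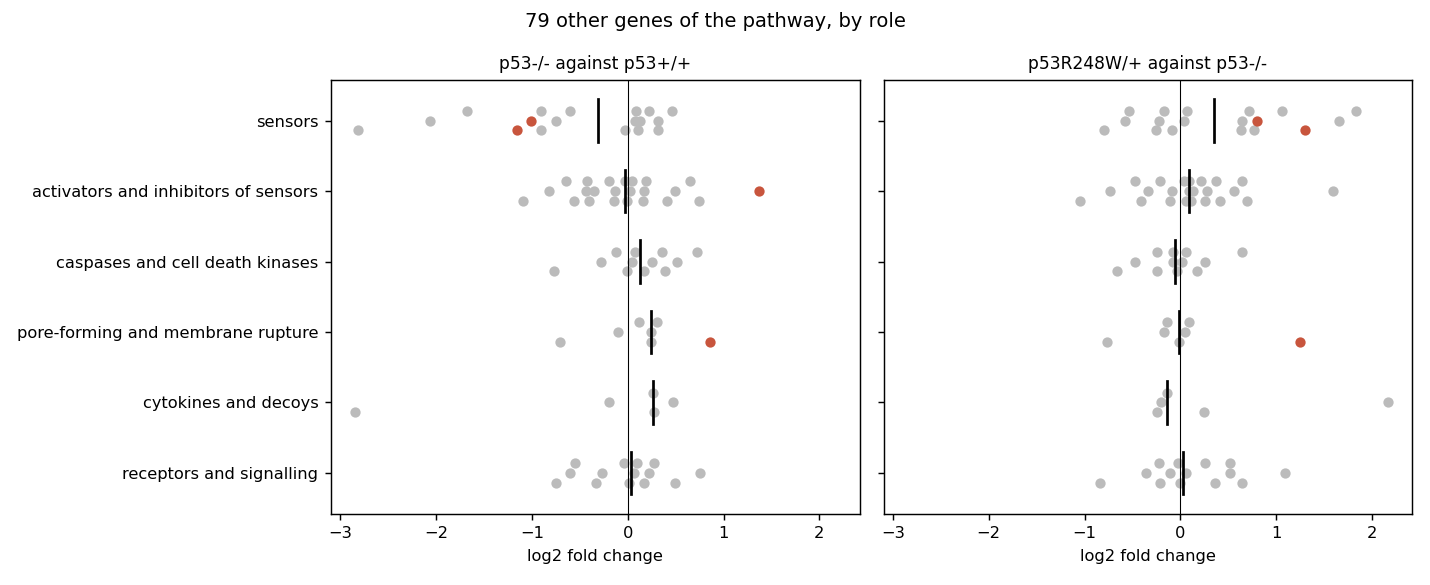
Log2 fold change of the 79 other genes of the pathway in 6 roles, in p53-/- against p53+/+ and in p53R248W/+ against p53-/-, with a bar at the median of each role and called genes in red. The sensors have the lowest median in p53-/- against p53+/+, at -0.31, and 4 and 3 genes are called.

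The genes whose log2 CPM followed that of Nlrp1a most closely over the 9 libraries, among 11483 candidates, were Sf3a3 (Pearson r of 0.97), Stip1, Pitpna, Rbmx2 and Mphosph10 (0.96 each). These values describe 9 libraries that fall into genotypes and share depth and cell make-up, and they carry no test. Sf3a3 had 159.62 CPM in p53+/+ replicate 1, 193.46 and 213.81 in replicates 2 and 3, 179.82 to 202.40 in p53R248W/+ and 136.56 to 150.80 in p53-/- libraries. Its relative range was far narrower than that of Nlrp1a (0.23 to 17.57 CPM), which a correlation does not show. Like Nlrp1a, it had its p53+/+ replicate 1 nearest to the p53-/- libraries, a likeness for which it was picked. Trp53 was at rank 11, with an r of 0.95. The p53 target Cdkn1a was at rank 1783, with an r of 0.65, and Nlrp1b at rank 5725, with an r of 0.04.

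Within 500 kb of Nlrp1a, 20 genes were tested, Nlrp1a and Nlrp1b among them. In p53-/- against p53+/+ LSKs the median log2 fold change of the 20 was -0.08, and besides Nlrp1a edgeR called 1 gene (3.50% of all genes), Derl2, a protein of the endoplasmic reticulum degradation machinery. Of the 20, DESeq2 called 3 and limma-voom 0. Derl2 rose by 0.79 (SE 0.19, adjusted p = 0.0428, edgeR), from 45.23 to 57.24 CPM in p53+/+ to 80.48 to 97.54 in p53-/- libraries. The call was lost without any one library other than p53+/+ or p53R248W/+ replicate 1 (adjusted p of 0.0534 to 0.169). In p53R248W/+ against p53+/+ LSKs 0 of the 20 were called with edgeR, DESeq2 or limma-voom, and 0 had an unadjusted p below 0.05 in edgeR (0.958% of all genes). In p53R248W/+ against p53-/- LSKs edgeR called no gene of the 20 besides Nlrp1a, which was chosen by its fall in p53-/-. Derl2 passed the threshold without p53R248W/+ replicate 1 (adjusted p = 0.0200, edgeR).

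**Figure D5:**
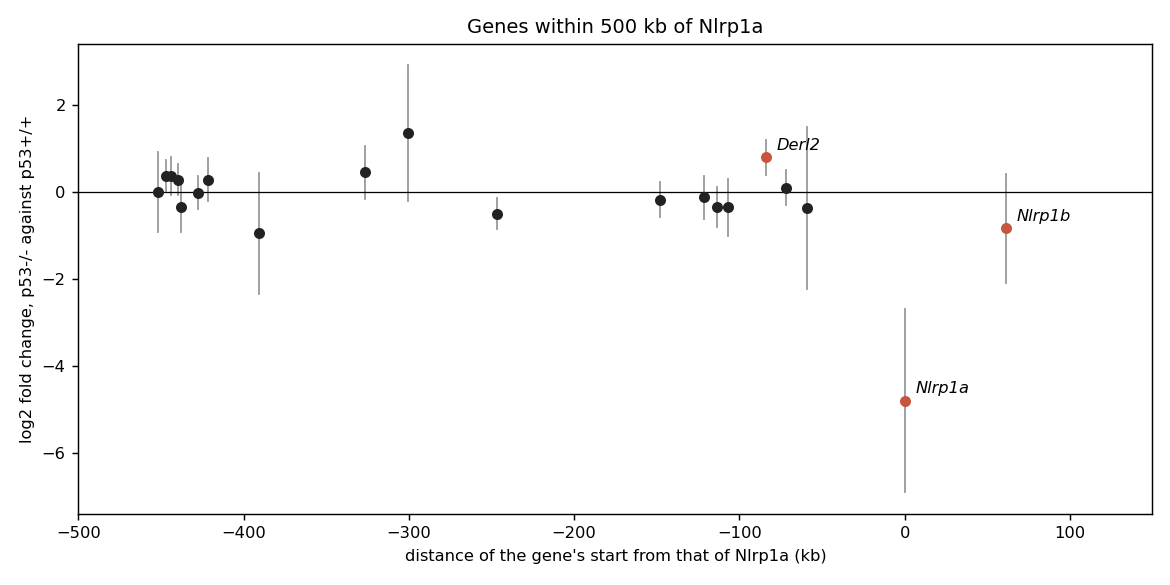
Log2 fold change in p53-/- against p53+/+ LSKs, with 95% intervals, of the 20 genes within 500 kb of Nlrp1a, by the distance of their start from that of Nlrp1a in kb. Nlrp1a, chosen by this fall, is at -4.81, Nlrp1b at -0.84 and Derl2 at 0.79, and the median of the 20 is -0.08.

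Of the 18 neutrophil and monocyte markers, 17 were below 0 in p53-/- against p53+/+ LSKs, and 1 was called lower (3.50% of all genes). An unadjusted p below 0.05 was reached by 9 of the 18, all lower (23.4% of all genes). In the same comparison 1 of 12 LSK markers was called higher, 1 of the 6 T and NK lymphoid markers lower, and 0 of the B lymphoid, erythroid, and dendritic and macrophage lists with edgeR. At an unadjusted p below 0.05 these lists had 5, 3, 2, 0 and 2 markers, in this order. In p53R248W/+ against p53+/+ LSKs edgeR called 0 markers of these lists, with 3 at an unadjusted p below 0.05 (0.958% of all genes). In p53R248W/+ against p53-/- LSKs it called 3 of 12 LSK markers lower (3.44% of all genes). It called 3 of 18 neutrophil and monocyte and 2 of 6 T and NK lymphoid markers higher, and 0 of the other lists. The T and NK lymphoid list, with 6 of 10 markers detected, summed to 428.8 to 480.1 CPM in p53+/+, 441.9 to 555.0 in p53R248W/+ and 274.5 to 353.7 in p53-/- libraries. The B lymphoid list (7 of 8 detected) summed to 76.3 to 126.0, 98.8 to 135.7 and 90.5 to 105.8 CPM, the erythroid list (5 of 9) to 46.5 to 65, 31.4 to 92.3 and 24.9 to 81.8, and the dendritic and macrophage list (8 of 8) to 48.3 to 70.4, 37.0 to 62.4 and 58.9 to 81.0, in the same order. None of the detected markers was at 0 throughout a genotype. In p53+/+ replicate 1, where Nlrp1a was lowest, the neutrophil and monocyte markers were lowest of the p53+/+ libraries as well, at 3240 CPM, but in replicate 3, where Nlrp1a was highest, they summed to 4466 CPM and in replicate 2 to 8809. Their part in the levels of Nlrp1a, Il18 and the other genes was not tested.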

How the data were processed

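The 9 RNA-seq libraries fall into 3 genotypes by their labels. For each gene the authors deposited a raw count of reads in whole numbers, its length, and the results of their own tests (fold changes with p-values before and after adjustment), which were not used. The submitters' processing notes name STAR 2.5.2b, featureCounts, Subread 1.5.0, edgeR and mm10. The annotation and strand setting are not given in the sources used here. The table holds no gene with fewer than 37 counts over the libraries. For the library preparation, oligo(dT) beads with random hexamers are described in the methods and a SMART-Seq kit in the labels. The 2 ChIP-seq samples were not analysed here.

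Counts were fitted with edgeR 4.0.16 in R 4.3.3 (filterByExpr by genotype, TMM factors from 0.935 to 1.04, 1 quasi-likelihood fit to all 9 libraries, Benjamini-Hochberg adjustment over 12625 genes, threshold 0.05). Levels are CPM with these factors, divided by the deposited length for CPM per kb, and log2 CPM for correlations had a prior count of 2. Tried as alternatives were DESeq2 1.42.0, voom in limma 3.58.1, other size factors, other filters (none, or 10 counts in every library), 6 libraries only, the replicate block, a threshold of 0.1, and leaving out each library. Positions and sequences are from RefSeq on GRCm38.p6, which placed 12393 genes. Scripts were tested on simulated data.

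The genes, lists and tests were chosen with earlier results of these data known. Named were the 10 genes, every pathway gene called, up to 3 pathway genes per role with the highest CPM per kb, the 5 genes most correlated with Nlrp1a (average log2 CPM of at least 1), Trp53 and Cdkn1a. Derl2 was named after its values were seen. The values of 1 pathway gene that this rule names are not reported here.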

Additional observations from a re-analysis of the deposited data

How the results depend on the processing

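Of the 10 genes, 1 was called in each comparison with p53-/- (Nlrp1a, as selected). The part of Nlrp1a in the counts that follow describes the fits and is no test of this gene. DESeq2 and a threshold of 0.1 called 2 in both. limma-voom and a filter of 10 counts in every library, which removes Nlrp1a, called 0 in both, and the fit to 6 libraries, whose filter removes Nlrp1a, called 0 in p53-/- against p53+/+. Leaving out 1 library gave 0 to 2 in both. The count was 0 without p53+/+ replicate 2 or 3 or any p53-/- library in p53-/- against p53+/+, and without p53R248W/+ replicate 2 or 3 or any p53-/- library in p53R248W/+ against p53-/-, and 2 without p53R248W/+ replicate 1. Of the pathway genes in p53-/- against p53+/+ (4 called), DESeq2 called 12, upper-quartile factors 2, the replicate block 7 and a threshold of 0.1 called 10, with 0 to 12 when 1 library was left out. In p53R248W/+ against p53-/- (3 called) the numbers were 11 with DESeq2, 6 with the replicate block, 11 at a threshold of 0.1, and 1 to 10 with 1 library left out.

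Over all genes, 442 were called in p53-/- against p53+/+, and DESeq2, which was run on all 12647 genes, called 1542, the fit to 6 libraries 894, the replicate block 882 and a threshold of 0.1 called 1309, with 37 to 1485 when 1 library was left out. In p53R248W/+ against p53-/- (434 called) these were 1326, 208, 672, 1069, and 77 to 1559. In p53R248W/+ against p53+/+ (1 called) DESeq2 called 6, the filter of 10 counts 0, the replicate block 2 and a threshold of 0.1 called 2, and the count was 1 without any one library. The cause of these differences was not tested. Same-numbered libraries correlated at 0.36, 0.54 and 0.04 between p53R248W/+ and p53+/+, at 0.01, -0.09 and -0.03 between p53-/- and p53+/+, and at 0.07, -0.11 and 0.13 between p53R248W/+ and p53-/-. Between p53R248W/+ and p53+/+ the same number was the best match for each of numbers 1, 2 and 3. With p53-/- libraries it was so only for number 3 of p53R248W/+. The main fit did not take the numbers as pairs, and a pairing of p53R248W/+ with p53+/+ libraries enters only in the replicate block. The replicate block changed the call of none of the 10 genes.

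Directions that turned were small or imprecise. In p53R248W/+ against p53+/+ the log2 fold change of Nlrp1a was 0.5971 with limma-voom and 0.1075 with the replicate block, that of Nlrp1b 0.3106 and 0.0884, that of Nlrp3 -0.1765 with limma-voom, and that of Il18 0.0003 with DESeq2 and 0.0010 with limma-voom. With 1 library left out, values in this comparison ran from -0.9635 to 0.536 for Nlrp1a, -0.5551 to 0.5023 for Nlrp1b, -0.1001 to 0.8648 for Nlrp3, -0.0618 to 0.3914 for Pycard, -0.2094 to 0.1081 for Casp1, -0.0389 to 0.1187 for Gsdmd, -0.2042 to 0.1336 for Il18 and -2.2546 to 0.2637 for Il1b. In p53-/- against p53+/+ they ran from -0.8697 to 0.1398 for Nlrp3, -0.2371 to 0.0404 for Nlrc4, -0.005 to 0.2481 for Pycard and -1.8473 to 0.5608 for Il1b, and in p53R248W/+ against p53-/- from -0.1993 to 0.267 for Pycard, -0.0821 to 0.2489 for Casp1 and -1.0215 to 0.3176 for Il1b. Counts under 100 per library limit Nlrp3 and Il1b, and with 3 libraries a genotype no test here separates the genotype from alleles linked to it. The same holds for any step of preparation that the p53-/- libraries did not share with the others. Whether they were prepared apart was not tested.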
